A study of Homo sapiens with 6 samples.

Results

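The immediate early genes described here are FOS, FOSB, FOSL1, JUN, JUNB, EGR1, ATF3, IER2 and DUSP1, 9 of the 58302 gene rows of the deposited table, picked by gene name. All 9 passed the filter on low counts and belong to the 15631 genes tested. The cells were A549, a human lung adenocarcinoma line, grown in medium with fetal bovine serum. The labels put 3 libraries in the overexpression group, transfected with the long non-coding RNA SNHG5, and 3 in the control group, transfected with vector. They describe the repeats as biological replicates and give no time between transfection and harvest, and no untransfected library was used here. SNHG5 itself stood at 153.3, 126.5 and 62.9 CPM (the count scaled to the library total with TMM factors) in overexpression 1, 2 and 3, against 61.0, 101.3 and 55.1 CPM in control 1, 2 and 3. The library labelled overexpression 3 thus lay below control 2 and close to control 1 in SNHG5, so directions below are between libraries as labelled.

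Immediate early genes are switched on within minutes of serum, growth factors or stress, without new protein synthesis, and their RNAs decay quickly. FOS, FOSB and FOSL1 encode FOS-family proteins, which bind DNA only as partners of JUN-family proteins such as JUN and JUNB, together forming the AP-1 transcription factor. EGR1 encodes a zinc finger transcription factor, ATF3 a stress-induced relative of AP-1 proteins, IER2 a small nuclear protein, and DUSP1 a phosphatase that switches MAP kinases off. In epithelial tumour cells, FOSL1 and JUN are known as long-lasting outputs of ERK signalling, while FOS and EGR1 are transient.

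The libraries held 13378079 to 16823958 counts with overexpression and 14798193 to 16999604 counts with vector. Over all genes tested, edgeR called 4 higher and 16 lower in the libraries labelled overexpression, with none of the 9 among them. The 11 epithelial and A549 marker genes, each of them tested, summed to 10436 to 13622 CPM with overexpression and 12624 to 17652 CPM with vector, with ALDH1A1, KRT8 and TXNRD1 high and EPCAM low, at 2.27 to 4.19 CPM over all libraries. Fibroblast markers summed to 5.58 to 24.7 CPM with overexpression and 11.8 to 22.9 CPM with vector. White blood cell markers summed to 4.31 to 10.1 CPM with overexpression and 4.003 to 10.4 CPM with vector, most of it ITGAM, and PTPRC, CD3E and LYZ had 0 counts throughout. Of the 4 endothelial markers all had 0 counts with overexpression, and their sum with vector reached 0.133 CPM, CDH5 and KDR being at 0 throughout.

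None of the 9 genes passed edgeR's quasi-likelihood test between the libraries labelled overexpression and control, with Benjamini-Hochberg adjustment over all genes tested and a threshold of 0.05. Of all genes tested 0.128% passed, 0.0256% higher and 0.102% lower. At an unadjusted p under 0.05, 0 members were counted with edgeR, where 6.49% of all genes tested were. DESeq2 counted 0, beside 4.38% of the genes it gave a p, and limma-voom 1, JUNB, beside 6.83%. After adjustment both other tools also called 0. What the genes showed was a large spread between libraries of the same group. FOS, FOSB, EGR1 and ATF3 were far lower in overexpression 3 than in any other library, and next lowest in control 3.

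The promoters of 8 of the 9 genes were found in RefSeq's table for GRCh38.p14, as windows of 250 bases before and 50 after the start, and FOSL1 is named only. The 5 below are shown because EGR1, FOS and FOSB followed each other closely from library to library, DUSP1 followed them over a narrower range and IER2 did not follow them. Capitals mark matches on either strand to TGACG, the core of the cyclic AMP response element, to its full form TGACGTCA, to GCGNGGGCG, the EGR site, and to the CArG box, which serum response factor binds. The full element contains the core on each strand, so these matches overlap. EGR1 lies on the plus strand at chr5:138465229-138465528, FOS on the plus strand at chr14:75278578-75278877, FOSB on the plus strand at chr19:45467746-45468045, DUSP1 on the minus strand at chr5:172771146-172771445 and IER2 on the plus strand at chr19:13150161-13150460.
EGR1: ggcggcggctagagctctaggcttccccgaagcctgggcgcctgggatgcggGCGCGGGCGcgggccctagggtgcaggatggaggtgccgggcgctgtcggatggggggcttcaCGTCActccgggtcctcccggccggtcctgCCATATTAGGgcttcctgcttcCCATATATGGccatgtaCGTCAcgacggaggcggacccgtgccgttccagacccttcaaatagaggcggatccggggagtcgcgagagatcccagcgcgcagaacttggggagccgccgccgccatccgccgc
FOS: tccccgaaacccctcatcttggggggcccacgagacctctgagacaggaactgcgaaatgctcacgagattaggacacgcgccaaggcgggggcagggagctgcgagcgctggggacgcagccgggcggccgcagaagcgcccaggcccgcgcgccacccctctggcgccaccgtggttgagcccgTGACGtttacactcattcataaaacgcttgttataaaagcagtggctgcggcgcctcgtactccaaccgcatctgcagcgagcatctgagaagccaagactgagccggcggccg
FOSB: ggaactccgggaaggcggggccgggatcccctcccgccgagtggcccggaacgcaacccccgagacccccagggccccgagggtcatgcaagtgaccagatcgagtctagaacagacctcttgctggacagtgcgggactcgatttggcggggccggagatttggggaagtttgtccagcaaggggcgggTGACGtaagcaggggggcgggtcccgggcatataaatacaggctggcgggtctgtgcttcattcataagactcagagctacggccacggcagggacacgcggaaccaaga
DUSP1: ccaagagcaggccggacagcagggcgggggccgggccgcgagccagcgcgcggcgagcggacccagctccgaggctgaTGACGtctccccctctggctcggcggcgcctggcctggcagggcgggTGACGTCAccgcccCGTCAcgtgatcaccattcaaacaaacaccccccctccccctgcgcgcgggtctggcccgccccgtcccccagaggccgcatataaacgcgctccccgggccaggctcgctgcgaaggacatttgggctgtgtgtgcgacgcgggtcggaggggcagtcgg
IER2: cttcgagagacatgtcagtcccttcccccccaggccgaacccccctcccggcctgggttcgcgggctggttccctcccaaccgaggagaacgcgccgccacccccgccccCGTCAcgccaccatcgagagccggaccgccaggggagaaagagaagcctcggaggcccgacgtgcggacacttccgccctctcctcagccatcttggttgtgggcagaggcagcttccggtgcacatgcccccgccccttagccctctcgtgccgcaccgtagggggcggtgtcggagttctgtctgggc

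The EGR1 window held 2 CArG boxes, starting 105 and 83 bases before the start, a match that 1.29% of the 35116 promoter windows of the table hold. It also held 1 EGR site, as 9.43% of windows do. The core TGACG was found in 7 of the 8 member genes and in 24.6% of all windows. ATF3 lacked it in both windows searched, but this gene has 11 annotated transcripts and its other starts were not searched. In FOS and FOSB the core stood at almost the same place, 64 and 60 bases before the start. DUSP1 had the full element, 125 bases before the start, which 1.85% of windows hold. TGANTCA, the short form of the AP-1 site, searched on both strands, was found in 0 of the 8 genes and in 7.71% of windows. Other forms of this site were not searched. The letters of one of them, TGACATCA, stand in the JUN window and in an ATF3 window. These are letter matches in short windows and say nothing of binding in these cells.

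Among the FOS family, FOS and FOSB were low and FOSL1 high. FOS (ENSG00000170345, chromosome 14, 75278774 to 75282230, plus strand, GRCh38 as in the deposited table) had 192, 295 and 24 counts in overexpression 1, 2 and 3, against 168, 106 and 50 counts in control 1, 2 and 3. In CPM these were 11.7, 21.5 and 1.40 in overexpression 1, 2 and 3, against 11.2, 6.95 and 3.08 in control 1, 2 and 3. The overexpression libraries held both the highest and the lowest value, so the groups overlapped fully. The means were 11.5 ± 10.0 CPM with overexpression and 7.08 ± 4.06 CPM with vector (SD, n = 3 each), a log2 fold change of 0.70 with an SE of 0.83 and an edgeR adjusted p of 0.816.

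FOSB (ENSG00000125740, chromosome 19, 45467995 to 45475179, plus strand) varied most. It had 536, 451 and 10 counts in overexpression 1, 2 and 3, against 365, 198 and 48 counts in control 1, 2 and 3. In CPM these were 32.5, 32.8 and 0.582 in overexpression 1, 2 and 3, against 24.3, 13.0 and 2.96 in control 1, 2 and 3. Overexpression 1 and 2 lay above every control, and overexpression 3 below every control. On the log2 scale the fold change was 0.71 with an SE of 1.13 (edgeR adjusted p 0.857), an error larger than the difference itself. FOSB overlaps ERCC1, a DNA repair gene on the opposite strand, and the library kit named in the labels does not mark strand. ERCC1 had 1459 counts in overexpression 3, where FOSB had 10, and 1325 to 1724 counts in the 5 other libraries.

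FOSL1 (ENSG00000175592, chromosome 11, 65892049 to 65900573, minus strand), which encodes FRA1, was the abundant member of the family. It stood at 439.1, 329.6 and 101.0 CPM in overexpression 1, 2 and 3, against 326.7, 214.9 and 180.1 CPM in control 1, 2 and 3. The order of the libraries was nearly that of FOS and FOSB, with overexpression 3 lowest and control 3 next, but over a 4.35-fold range where FOSB spanned 56.4-fold. Its log2 fold change was 0.27 with an SE of 0.49 (edgeR adjusted p 0.873).

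**Figure D1:**
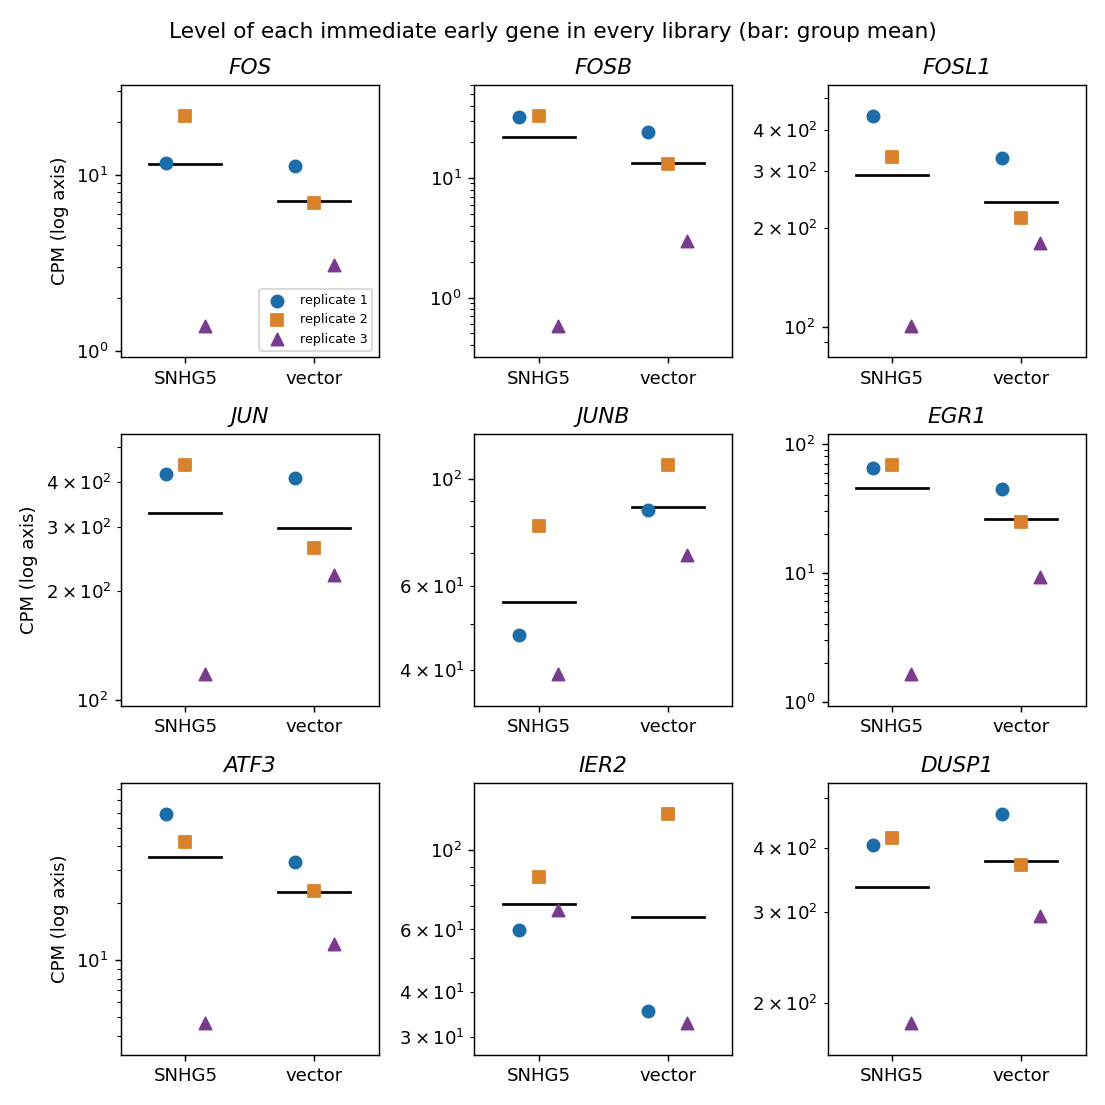
CPM of each gene (log axis) in the 3 libraries labelled SNHG5 and the 3 labelled vector, with the symbol showing the replicate number and the bar the group mean. In 8 of the 9 panels the triangle of overexpression 3 is the lowest point, down to 0.582 CPM for FOSB, and IER2 is the exception.

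In the JUN family, JUN followed the FOS genes and JUNB did not. JUN (ENSG00000177606, chromosome 1, 58780788 to 58784327, minus strand) stood at 421.2, 445.5 and 117.8 CPM in overexpression 1, 2 and 3, against 409.8, 263.5 and 222.3 CPM in control 1, 2 and 3. Its group means were 328 ± 183 CPM with overexpression and 299 ± 98.6 CPM with vector (SD, n = 3 each), with a log2 fold change of 0.14 and an SE of 0.48 (edgeR adjusted p 0.937). The groups overlapped, and the sign turned in several of the settings tried.

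JUNB (ENSG00000171223, chromosome 19, 12791496 to 12793315, plus strand), whose protein often acts against JUN in cell growth, was the member nearest to a group difference. It stood at 47.3, 80.0 and 39.2 CPM in overexpression 1, 2 and 3, against 86.0, 106.8 and 69.6 CPM in control 1, 2 and 3. Overexpression 2 lay above control 3, so the groups overlapped by this library. The means were 55.5 ± 21.6 CPM with overexpression and 87.5 ± 18.7 CPM with vector (SD, n = 3 each). The log2 fold change was -0.66 with an SE of 0.30, or 1.58-fold lower, with an edgeR unadjusted p of 0.0635 and an adjusted p of 0.746. An exact permutation test on log2 CPM, two-sided, gave p = 0.2, where 0.1 is the smallest that 3 libraries against 3 allow. JUNB was lower in 3 of 3 same-numbered pairs, with log2 differences of -0.86, -0.42 and -0.83, and with the replicate number as a block it had an unadjusted edgeR p of 0.00892 and an adjusted p of 0.342. Among all genes tested, 34.8% had the same sign in every pair (17.1% higher, 17.7% lower) and 9.29% an unadjusted p under 0.05 with the block, so neither is rare. HOOK2 lies over JUNB on the opposite strand, with 119 to 192 counts in the overexpression libraries and 131 to 150 counts in the controls, against at least 674 counts of JUNB in each library.

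Beside AP-1, EGR1 showed the same order of libraries as FOSB, and ATF3 differed from it only in which of overexpression 1 and 2 was higher. EGR1 (ENSG00000120738, chromosome 5, 138465490 to 138469315, plus strand) had 1079, 940 and 28 counts in overexpression 1, 2 and 3, against 668, 376 and 152 counts in control 1, 2 and 3. In CPM these were 65.5, 68.4 and 1.63 in overexpression 1, 2 and 3, against 44.5, 24.7 and 9.36 in control 1, 2 and 3. Overexpression 1 and 2 exceeded every control, and overexpression 3 lay below every control. EGR1 had a log2 fold change of 0.79 with an SE of 1.04 (edgeR adjusted p 0.829).

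ATF3 (ENSG00000162772, chromosome 1, 212565334 to 212620777, plus strand) stood at 59.0, 41.9 and 4.66 CPM in overexpression 1, 2 and 3, against 33.1, 23.1 and 12.2 CPM in control 1, 2 and 3. Again 2 overexpression libraries exceeded every control and 1 lay below every control. For ATF3 the log2 fold change was 0.63 with an SE of 0.76 (edgeR adjusted p 0.819). Without overexpression 3, ATF3 and EGR1 were at 1.14 and 1.35 on the log2 scale, with unadjusted p of 0.0268 and 0.0466 and edgeR adjusted p of 0.184 and 0.229. In that fit 21.2% of all genes tested had an unadjusted p under 0.05, a share close to that of the 9 genes.

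IER2 and DUSP1 completed the set. IER2 (ENSG00000160888, chromosome 19, 13150415 to 13154908, plus strand) stood at 59.8, 84.4 and 68.0 CPM in overexpression 1, 2 and 3, against 35.4, 126.4 and 32.8 CPM in control 1, 2 and 3. Control 2 was the highest of all libraries and the 2 other controls were the lowest, so the overexpression libraries lay between them. The log2 fold change was 0.13 with an SE of 0.51 (edgeR adjusted p 0.947). Without control 2 it was 1.05 with an SE of 0.21, an unadjusted p of 0.00219 and an edgeR adjusted p of 0.287, in a fit where 5.43% of all genes tested had an unadjusted p under 0.05. Control 2 also stood apart in other RNAs, with 28.1 CPM of the nuclear RNA MALAT1, against 118.3 to 476.1 CPM in the overexpression libraries and 372.0 to 410.2 CPM in the other controls, and the part of this in the IER2 value was not tested.

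DUSP1 (ENSG00000120129, chromosome 5, 172768090 to 172771195, minus strand) was abundant and the steadiest of the genes that followed FOSB. It stood at 405.0, 418.2 and 182.3 CPM in overexpression 1, 2 and 3, against 465.2, 369.8 and 295.3 CPM in control 1, 2 and 3. The groups overlapped, with overexpression 3 alone below all controls. DUSP1 had a log2 fold change of -0.17 with an SE of 0.34 (edgeR adjusted p 0.887).

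The median log2 fold change of the 9 genes was 0.27, beside 0.0072 over all genes tested, with 7 above 0 and 2 below. With the replicate number as a block it was 0.078. This median gives no direction for the set, because the same-numbered pairs of libraries went opposite ways. The median log2 difference, overexpression minus control, was 0.42 in pair 1, 0.76 in pair 2 and -0.92 in pair 3. FOS, FOSB, FOSL1, JUN, EGR1 and ATF3 were all higher in pairs 1 and 2 and lower in pair 3, a combination that 17.9% of all genes tested showed. For EGR1 the differences were 0.56, 1.47 and -2.50 in pairs 1, 2 and 3, and for FOSB 0.42, 1.34 and -2.29. JUNB alone of the 9 had the same sign in all pairs. In 0 of the 9 genes did the groups fail to overlap, while 13.6% of all genes tested had groups apart, 6.04% higher and 7.52% lower.

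**Figure D2:**
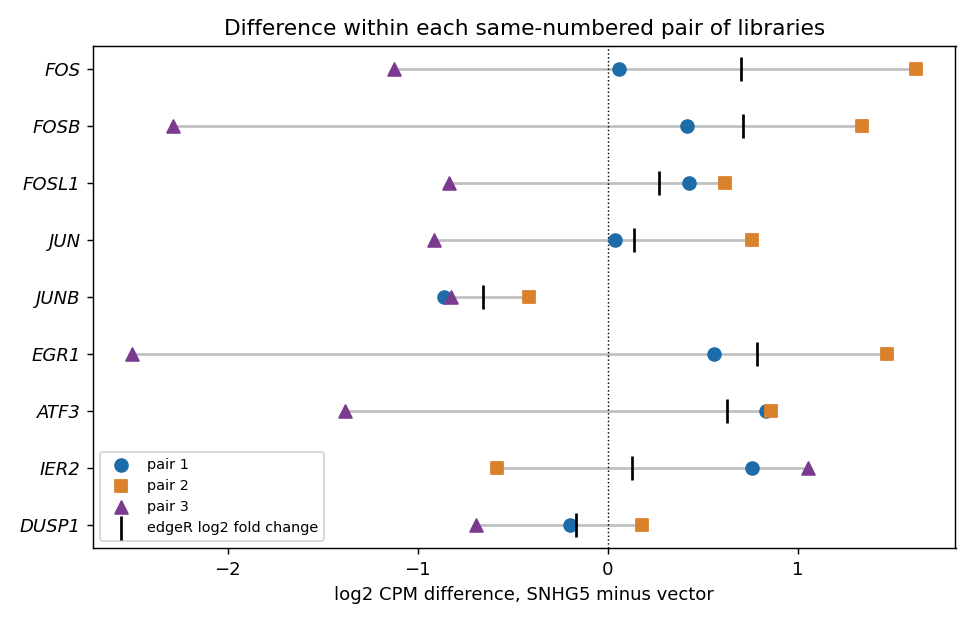
Log2 CPM difference, overexpression minus control, within each same-numbered pair of libraries, for the 9 genes, with the fitted edgeR log2 fold change as a vertical tick. Pair 3 lies left of 0 for all genes but IER2, reaching -2.50 for EGR1, while pairs 1 and 2 lie right of 0 for 6 genes.

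Overexpression 3 was the lowest library in 8 of the 9 genes, against 16.5% of all genes tested, and in 7 of them control 3 was the next lowest, against 7.61%. Relative to each gene's mean log2 CPM, the members' median deviation stood at 0.79, 0.65 and -1.27 for overexpression 1, 2 and 3, against 0.53, 0.12 and -0.84 for control 1, 2 and 3. As a share of all counts the 9 genes together made up 0.153%, 0.156% and 0.0528% for overexpression 1, 2 and 3, against 0.139%, 0.118% and 0.0791% for control 1, 2 and 3. Both libraries numbered 3 were thus low, and more so the one labelled overexpression. The mitochondrial share was 5.04%, 3.80% and 6.16% for overexpression 1, 2 and 3, against 4.597%, 2.57% and 5.31% for control 1, 2 and 3, largest in the libraries numbered 3. Of the 4 fibroblast markers tested, COL1A1, COL3A1 and THY1 were highest in the 2 libraries numbered 3, and LUM was not. COL1A1 stood at 1.88, 3.20 and 16.4 CPM in overexpression 1, 2 and 3, against 6.997, 6.95 and 14.2 CPM in control 1, 2 and 3. COL3A1 stood at 2.002, 1.53 and 3.78 CPM in overexpression 1, 2 and 3, against 2.399, 2.03 and 4.56 CPM in control 1, 2 and 3. THY1 stood at 0.667, 0.437 and 3.20 CPM in overexpression 1, 2 and 3, against 0.933, 1.57 and 2.52 CPM in control 1, 2 and 3. Of the other fibroblast markers, DCN and COL1A2 did not pass 0.121 CPM in any library and PDGFRB did not pass 0.407 CPM. The part of these in the result was not tested. In bulk RNA, fewer cells with the transcripts and less RNA in each cell cannot be told apart.

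The spread within groups was among the widest in the data for 4 of the genes. The within-group SD of log2 CPM was 2.50 for FOSB, 2.29 for EGR1, 1.56 for FOS and 1.48 for ATF3, all in the top 5% of genes tested and the first 3 in the top 1%. FOSL1, JUN and IER2 had SDs of 0.85, 0.83 and 0.79. JUNB and DUSP1 had SDs of 0.43 and 0.53, ordinary values for this table, at the 62.7th and 75.2nd percentile.

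**Figure D3:**
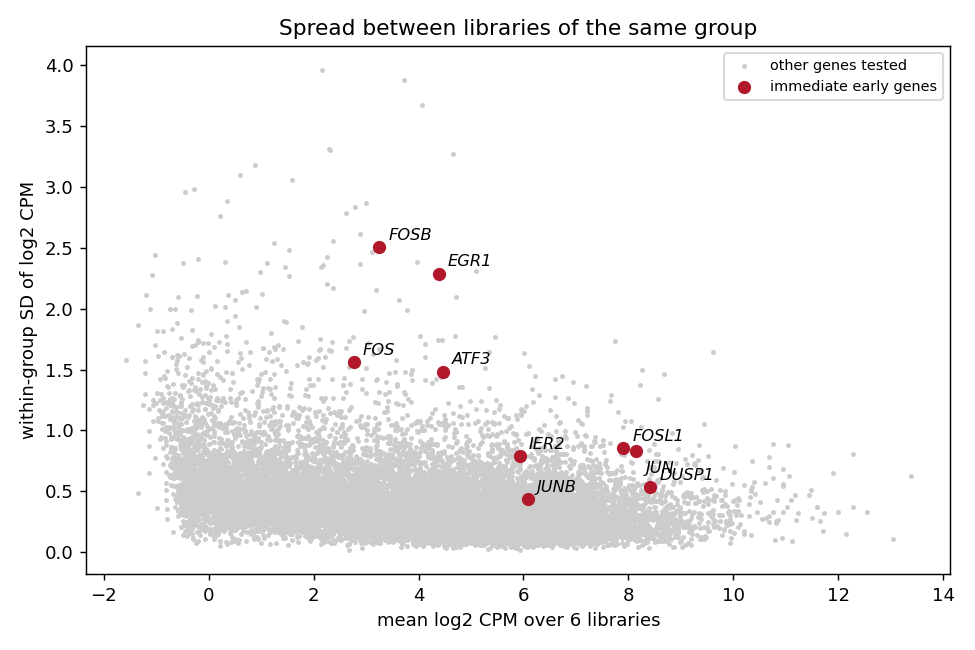
Within-group SD of log2 CPM against mean log2 CPM for the 15631 genes tested (grey) and the 9 immediate early genes (red). FOSB and EGR1 lie near the upper edge of the cloud with SDs of 2.50 and 2.29, and JUNB lies inside it at 0.43.

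Apart from JUNB and IER2, the members rose and fell together from library to library. Over the 6 libraries the 21 pairs among the 7 other genes had Pearson coefficients of log2 CPM from 0.92 to 1.00 and Spearman coefficients from 0.77 to 1.00. The points share library, depth and composition, and these values are a description. JUNB and IER2 were set apart for their own lower coefficients, so the range of the other pairs is high in part by that choice. Without the 2 libraries numbered 3 the Pearson coefficients of the same 21 pairs ran from 0.28 to 1.00 over 4 libraries, the lowest being ATF3 with DUSP1 and the highest FOSB with EGR1. Pairs with JUNB ran from 0.19 to 0.65 over all 6 libraries, and pairs with IER2 from -0.05 to 0.19. Over the 4 libraries not numbered 3, pairs with JUNB ran from -0.95 to 0.36 and pairs with IER2 from -0.92 to 0.36. Of 10927 other genes with a mean log2 CPM of at least 2, those most like the members' mean standardised profile included NR1D1, GART, C3orf52 and AEN, with Pearson coefficients of 0.996, 0.993, 0.993 and 0.993 over 6 libraries. NR1D1, a nuclear receptor of the circadian clock, stood at 122.4, 139.6 and 10.5 CPM in overexpression 1, 2 and 3, against 124.7, 91.1 and 33.1 CPM in control 1, 2 and 3. GART, a purine synthesis enzyme, had the order of libraries of EGR1 over a narrow range of 143.7 to 174.8 CPM with overexpression, against 157.4 to 171.7 CPM with vector.

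Levels of different genes were compared per length, as CPM per kilobase of the union of a gene's exons in GENCODE release 29. DUSP1 was highest at 166 ± 65.7 in the overexpression libraries and 187 ± 42.2 in the controls (SD, n = 3 each), followed on this per-length scale by FOSL1, JUN, JUNB, IER2, EGR1, ATF3, FOSB and FOS. Per kilobase, FOSL1 averaged 154 ± 91.4 CPM with overexpression and 127 ± 40.6 CPM with vector, and JUN 92.7 ± 51.6 CPM with overexpression and 84.3 ± 27.8 CPM with vector. JUNB followed at 30.5 ± 11.9 CPM per kilobase with overexpression and 48.1 ± 10.3 with vector, and EGR1 at 14.4 ± 12.0 with overexpression and 8.34 ± 5.62 with vector. FOS was lowest at 3.55 ± 3.10 in the overexpression libraries and 2.19 ± 1.25 in the controls. Neighbours in this order overlapped in their ranges. FOSL1 exceeded JUN, JUN exceeded JUNB and ATF3 exceeded FOSB in 6 of 6 libraries. DUSP1 exceeded FOSL1 in 5 of 6, and FOSB and FOS split 3 to 3.

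Within the families, to which FOSL2 and JUND were added, FOSL1 and JUN made up most in nearly all libraries. FOSL1 held 90.8%, 72.0% and 49.5% of the per-length sum of the FOS family in overexpression 1, 2 and 3, against 66.4%, 60.7% and 78.3% in control 1, 2 and 3. FOSL2, which encodes FRA2, took nearly all of the rest, with 5.51%, 22.9% and 49.98% in overexpression 1, 2 and 3, against 30.6%, 36.9% and 20.5% in control 1, 2 and 3. FOS and FOSB together were minor in every library. JUN held 72.7%, 71.7% and 41.3% of the JUN family in overexpression 1, 2 and 3, against 63.3%, 51.7% and 59.2% in control 1, 2 and 3. JUND took 11.5%, 3.29% and 31.976% of it in overexpression 1, 2 and 3, against 10.9%, 7.58% and 4.68% in control 1, 2 and 3. In overexpression 3 the shares of FOSL2 and JUND were thus largest and those of FOSL1 and JUN smallest. The level of FOSL2 there was 386.5 CPM, against 101.0 and 396.8 CPM in overexpression 1 and 2 and 178.6 to 570.2 CPM in the controls. JUND stood at 35.0, 10.8 and 48.0 CPM in overexpression 1, 2 and 3, against 37.2, 20.3 and 9.24 CPM in control 1, 2 and 3. Its level in overexpression 3 was thus the highest of all libraries. The groups overlapped in each share. These shares depend on the length used. With the gene lengths behind the FPKM values deposited by the authors, longer for FOSL1 and the same for JUN, FOSL1 lay below JUN in every library and held 39.3% of the FOS family in overexpression 3, but stayed above FOSL2 in the 5 other libraries.

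**Figure D4:**
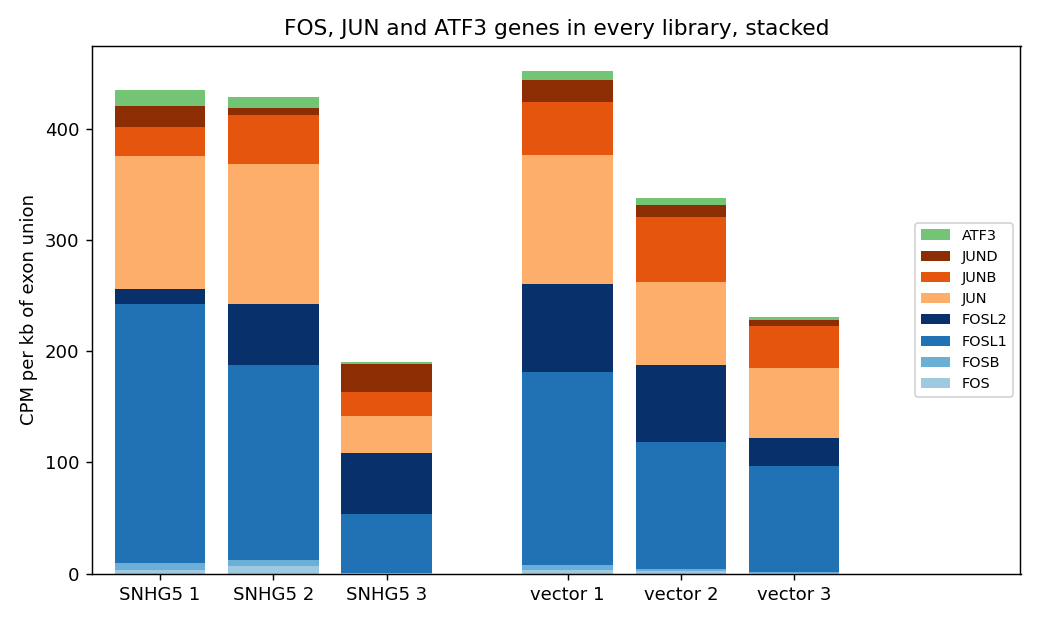
Stacked levels per length (CPM per kilobase of exon union) of FOS, FOSB, FOSL1, FOSL2, JUN, JUNB, JUND and ATF3 in each library, overexpression on the left and control on the right. FOSL1 and JUN fill most of each bar except in overexpression 3, where FOSL2 and FOSL1 are level with 49.98% and 49.5% of the FOS family.

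Apart from the interferon-stimulated genes, the neighbouring gene lists gave no call either in the edgeR fit described above. Of 10 tested genes among other AP-1 and small MAF relatives, 0 passed, with a median log2 fold change of -0.14. At an unadjusted edgeR p under 0.05 stood 3 of the 10, beside 6.49% of all genes tested. BATF2, an interferon-inducible AP-1 partner, came nearest, at 28.5, 20.3 and 26.5 CPM in overexpression 1, 2 and 3, against 64.6, 105.3 and 122.4 CPM in control 1, 2 and 3. Its groups lay apart, with a log2 fold change of -1.95, an SE of 0.28 and an edgeR adjusted p of 0.0668. BATF2 passed in edgeR with no filter on low counts (0.0163) or without control 1 (0.0388), and with DESeq2 (2.84e-07), though not with limma-voom (0.0677). Over its alternatives the adjusted p ran from 2.84e-07 to 0.600. MAFK, a small MAF protein, had a log2 fold change of -1.25 (SE 0.30, edgeR adjusted p 0.241) and passed only with DESeq2 (0.013) among these tools. MAFG and BATF3 had log2 fold changes of 0.71 and -0.59, with SEs of 0.19 and 0.36. The interferon-stimulated genes listed beside them were also chosen with earlier results known. Of these 15, edgeR called 5 lower and 0 higher, beside 0.102% lower and 0.0256% higher of all genes tested. With the replicate block 11 of the 15 were lower and 0 higher, beside 0.467% of all genes tested in either direction. The summed level of the 15 genes was 1229 to 3333 CPM with overexpression, against 10124 to 13755 CPM with vector.

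Of 38 tested genes among other immediate early genes, 0 passed in edgeR, DESeq2 and limma-voom, and the median log2 fold change was -0.09. An unadjusted edgeR p under 0.05 was found for 4 of the 38, beside 6.49% of all genes tested. The smallest p-values belonged to ZFP36L2, which destabilises RNAs, at -0.60 (SE 0.18), SIK1, a salt-inducible kinase, at -0.47 (SE 0.20), NAB1, a corepressor of EGR proteins, at 0.54 (SE 0.22), and NFKBIZ, a nuclear IκB protein, at 1.01 (SE 0.43), with edgeR adjusted p from 0.467 to 0.746. In 28 of the 38, overexpression 3 was the lowest library, which is 73.7% against 16.5% of all genes tested. Chosen after its values were seen, PPP1R15A (GADD34, a stress-induced phosphatase subunit) stood at 1706, 1671 and 124.2 CPM in overexpression 1, 2 and 3, against 1442, 952.7 and 463.1 CPM in control 1, 2 and 3. Also chosen after its values were seen, EGR2 was counted in both groups only in the libraries numbered 1 and 2, at 1.88 and 1.82 CPM in overexpression 1 and 2, against 1.47 and 0.721 CPM in control 1 and 2. It had 0 counts in both libraries numbered 3, where 3 counts would have been 0.175 CPM in overexpression 3 and 0.185 CPM in control 3. This tie was counted among the 28 genes with overexpression 3 lowest.

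ERK output genes and MAP kinase phosphatases other than DUSP1 numbered 21 tested, of which 0 passed in these 3 tools. Of them 1 had an unadjusted edgeR p under 0.05, beside 6.49% of all genes tested. ETV1, a transcription factor induced by ERK, was at 0.59 (SE 0.23), SPRED1, an inhibitor of ERK signalling, at 0.29 (SE 0.21), CCND1, cyclin D1, at -0.24 (SE 0.22), and DUSP7 at 0.28 (SE 0.26) on the log2 scale. The list's median was 0.09. Upstream, 26 tested genes for the kinases and for serum response factor and its partners had a median log2 fold change of -0.0026. This list had 0 calls in these tools and 3 genes at an unadjusted edgeR p under 0.05, beside the same 6.49%. MRTFA, a coactivator of serum response factor, was at -0.51 (SE 0.19), and the kinase genes RPS6KA5, RPS6KA3 and MAP2K4 were at -0.80 (SE 0.30), 0.49 (SE 0.20) and 0.39 (SE 0.19). Overexpression 3 was the lowest library in 12 of the 21 and in 6 of the 26, or 57.1% and 23.1%, against 16.5% of all genes tested.

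Among 15 tested genes known to be driven by AP-1, 0 passed in edgeR, DESeq2 and limma-voom, with a median log2 fold change of 0.22. An unadjusted edgeR p under 0.05 was reached by 1 of the 15, beside 6.49% of all genes tested. VEGFA, an angiogenic growth factor, was at 0.67 (SE 0.23), PLAU, the urokinase protease, at 0.62 (SE 0.35), HMGA1, a chromatin protein, at -0.35 (SE 0.21), and PLAUR, the urokinase receptor, at -0.41 (SE 0.25), with edgeR adjusted p from 0.643 to 0.746. Overexpression 3 was the lowest library in 11 of the 15, or 73.3%, against 16.5% of all genes tested. PLAU stood at 411.2, 416.1 and 176.8 CPM in overexpression 1, 2 and 3, against 257.0, 226.0 and 169.3 CPM in control 1, 2 and 3, so that the low values lay in the libraries numbered 3 again.

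Across the settings tried, no member passed the threshold. ATF3 stayed above 0 and JUNB below 0 in all 15 alternatives, from 0.03 to 1.14 and from -1.02 to -0.46 on the log2 scale. The 7 other genes turned in sign in at least 1. In simulated counts for this comparison, 12% of 2-fold and 78% of 4-fold changes were recovered among 15631 genes. The changed genes were drawn at random, with no effect shared by whole libraries. These shares need not hold for the members, of which FOSB, EGR1, FOS and ATF3 spread far more widely than most genes. How far they hold was not tested. The misses do not show that the levels were alike.

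**Figure D5:**
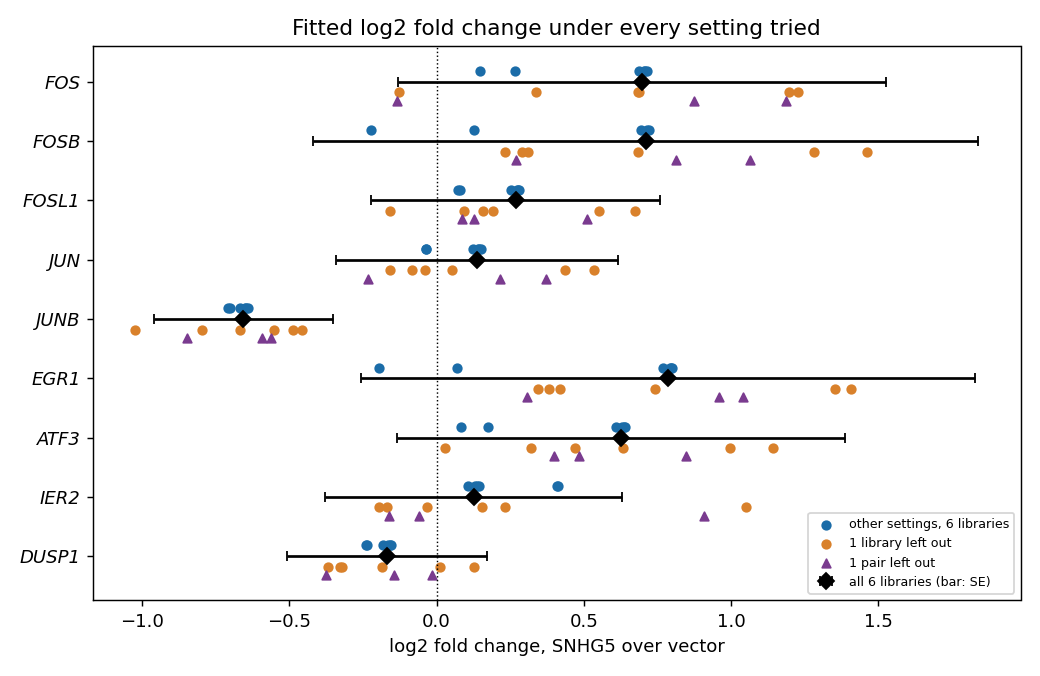
Fitted log2 fold change, overexpression over control, of the 9 genes with all 6 libraries (diamond, bar showing the SE), under other settings, and with 1 library or 1 pair left out. The values cross 0 for 7 genes, while JUNB lies between -1.02 and -0.46.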

How the data were processed

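RNA of A549 cells was sequenced in 6 libraries, 3 per group, made with a TruSeq kit that does not mark strand. FastQC, HISAT2 and the build GRCh38 are named in the submitters' processing notes. Which program counted the reads, and with what strand setting, is not given in the sources used here. In the table the authors deposited, each gene has raw counts and FPKM values per library. The deposited FPKM was the count over the library total and a gene length that was the same in all libraries, within 0.01%, for 100% of the 12867 genes that reached 20 counts in each one. FPKM values were not tested. Group and replicate number come from the labels.

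The test on the counts was that of edgeR 4.0.16, run in R 4.3.3 (TMM, filterByExpr, robust quasi-likelihood, two-sided). SEs are the size of the fitted log2 fold change divided by the square root of F. Log2 CPM has a prior count of 2 and pair differences add 0.5 counts. Alternatives were DESeq2 1.42.0, limma-voom (limma 3.58.1), the replicate block, DESeq2 size factors, 2 other filters (no filter, and at least 50 counts in every library of a group) and leaving out libraries. Those without both libraries of one number were added after the data were seen. The members and lists were chosen with earlier results of these data known. Named were all members, SNHG5, in each neighbouring list up to 4 genes past the threshold or else the 4 with the smallest p, and the 5 genes most like the members' profile. Some items that this covers are not reported here. FOSL2, JUND and genes overlapping a member were named outside this rule, as were cell type markers and MALAT1, whose values were known. Any further gene is marked in the text as chosen with its values known. Replicates differed by a chi-square of 26.2 to 94.5 per degree of freedom, so each library counted as 1 sample. Deviations from group means correlated at 0.35, 0.16 and 0.29 between same-numbered libraries 1, 2 and 3. Between libraries of different number they ran from -0.34 to 0.12, the highest being overexpression 2 with control 1. Deviations cancel out within each group, so these values do not establish that the numbers pair the libraries. The replicate block is therefore given as an alternative. The values in the text are from the fit without the block unless the block is named. P-values cover the spread between these libraries only. Floors of 3 counts cover counting error only. The test was checked on simulated counts in 3 runs, where 5.11% of calls were false. Promoter sequences are from RefSeq (GRCh38.p14).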

Additional observations from a re-analysis of the deposited data

How the results depend on the processing

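No member was called under any of the 15 alternatives, and the replicate block changed no member's call. With the block 69 genes over the whole table were lower in place of 16, with no filter 72, and with DESeq2 22 were higher in place of 4 and 238 lower. Leaving out 1 library gave 0 to 20 higher and 0 to 144 lower genes, and leaving out both libraries numbered 1, 2 or 3 gave 0 in each direction. The members' median log2 fold change, 0.27, ran from -0.031 to 0.67 without 1 library and was -0.036 with limma-voom, where FOSB, JUN and EGR1 lay at -0.22, -0.036 and -0.20. With the replicate block the median was 0.078, JUN lay at -0.036, and FOS, FOSB, FOSL1, EGR1 and ATF3 lay at 0.27, 0.13, 0.078, 0.069 and 0.18, nearer to 0 than without it. Without 1 library FOS ran from -0.13 to 1.23, FOSL1 from -0.16 to 0.67, JUN from -0.16 to 0.54, IER2 from -0.20 to 1.05 and DUSP1 from -0.37 to 0.13. Without both libraries of a number IER2 was at -0.061 (number 1) and -0.16 (number 3), and FOS and JUN at -0.14 and -0.23 (number 2). The cause was not tested. Of 134 results for members, 116 kept their sign and 18 turned. FOSB dropped out under the stricter filter, with 10 counts in overexpression 3 and 48 in control 3. SNHG5 stayed higher in all 15 alternatives, from 0.28 to 0.97, and short of the threshold.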
